A study of Homo sapiens with 8 samples.

Results

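The replication-dependent histone genes encode the histones that package newly copied DNA. They were taken as all genes of the expression table whose symbol begins with HIST1H, HIST2H, HIST3H or HIST4H, which gave 52 of 19583 genes. Of these, 39 lie in the HIST1 cluster, 11 in HIST2, 1 in HIST3 and 1 in HIST4. By product, 3 encode linker histone H1, 15 encode H2A, 17 encode H2B, 6 encode H3 and 11 encode H4. The table gives the older symbols, and all 52 matched a gene in RefSeq through its current or older names.

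Histones H2A, H2B, H3 and H4 form the core of the nucleosome, and H1 binds the linker DNA where it enters and leaves. Most histone mRNA is made in S phase, when NPAT, switched on by cyclin E and CDK2, drives the histone clusters. These mRNAs normally end just after a short stem-loop, which is bound by SLBP, and carry no poly(A) tail. Polyadenylated forms of some histone genes are also known, made from sites further along the gene. The libraries described here were made from polyadenylated RNA, so they report mainly on such forms.

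RNA was measured in MDA-MB-231 cells, an established human breast cancer line of mesenchymal character that lacks the estrogen and progesterone receptors. The cells were labelled shCHD4 (a short hairpin RNA against CHD4, the ATPase of the NuRD chromatin remodelling complex) or shSC (a scrambled hairpin). Each was kept at 1% or 20% O2 for 24 h, with 2 libraries in each of the 4 groups. The targeted gene itself did not go down under its hairpin: CHD4 stood at 299 and 287 normalised read counts under shCHD4 against 280 and 278 under shSC at 1% O2 and 293 and 305 under shCHD4 against 299 and 298 under shSC at 20% O2. The limma log2 difference in CHD4 was 0.07 (SE 0.042, adjusted p = 0.129) at 1% O2 and 0.0018 (SE 0.042, adjusted p = 0.968) at 20% O2. Scaled otherwise, CHD4 was higher under shCHD4, by 0.23 at 1% O2 and 0.11 at 20% O2 with quantile normalization and by 0.19 at 1% O2 with every library at the same total (adjusted p = 8.7e-05, 0.0197 and 0.000604). Every difference between labels given here is therefore one between libraries that carry these labels.

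The libraries held 24947627 to 31903585 gene-assigned reads. The first principal component, with 88.8% of the variance, separated the 2 labels, and the second, with 7.58%, separated the 2 O2 levels. Whether a group's 2 libraries are separate cultures is not said, and the p-values rest on a spread that may be technical only. Markers of the line were high, with VIM at 3471 to 6856 normalised read counts. CD44 was at 732 to 817 under shCHD4 against 1248 to 1421 under shSC, and CAV1 at 658 to 813 against 353 to 389. ESR1 (0.0354 to 0.138), PGR and CDH1 were at or near 0. EPCAM at 4.17 to 7.56 and ERBB2 at 35.0 to 54.1 were not at 0, nor were the luminal keratins KRT8 (85.9 to 243), KRT18 (211 to 257) and KRT19 (30.8 to 137). KRT8 was higher under shCHD4 and KRT19 lower at each O2 level, as was the basal gene TP63, at 0.177 to 0.343 under shCHD4 against 2.32 to 4.23 under shSC; the part of these markers in the results was not tested. Of markers of other cells, the fibroblast genes COL1A2 and DCN were at or near 0, PTPRC stayed under 0.65 and COL1A1 lay between 19.1 and 32.6. LUM, also a fibroblast gene, was at 1.10 to 1.35 under shCHD4 against 0.149 to 0.414 under shSC. CD14, a macrophage gene, was at 0.823 to 1.78.

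The 3′ stem-loop was looked for in the GENCODE 29 transcripts (GRCh38), because it sets the processed end of these mRNAs. It was found in 25 of the 52 genes, in 5 distinct forms of 16 bases, and 13 of the 25 carry the same form. The loops of 8 genes follow, of genes that had reads in every library (HIST1H2AC, HIST1H2BD, HIST1H2BC, HIST1H4H and HIST2H2BE) and of genes with 1 read in all 8 libraries together (HIST1H2AE, HIST1H2BG and HIST1H4E, chosen after their values were seen). The capitals mark the 16-base stem-loop, written as DNA, with 5 bases either side.
HIST1H2AC: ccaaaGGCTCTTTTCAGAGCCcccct
HIST1H2BD: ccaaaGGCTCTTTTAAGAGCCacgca
HIST1H2BC: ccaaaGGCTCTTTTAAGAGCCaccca
HIST1H4H: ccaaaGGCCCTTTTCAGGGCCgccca
HIST2H2BE: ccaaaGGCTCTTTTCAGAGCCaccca
HIST1H2AE: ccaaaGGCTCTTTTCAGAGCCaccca
HIST1H2BG: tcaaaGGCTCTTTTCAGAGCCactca
HIST1H4E: tcaaaGGCCCTTTTCAGGGCCgccca
HIST1H2AC, HIST2H2BE, HIST1H2AE and HIST1H2BG have the same 16 letters, and so have HIST1H4H and HIST1H4E. In both cases the letters are shared by genes with reads in every library and genes with 1 read. Past the loop, a GENCODE transcript runs on for 1128 bases in HIST1H2AC, 1729 in HIST2H2BE and up to 1655 in HIST1H4H, and for 116 in HIST1H2BC and 39 in HIST1H2BD. It runs on for 51 bases in HIST1H2AE. In HIST1H2BG it runs on for 1059 bases and in HIST1H4E for 1022, and each had 1 read. Among these 8 genes, long and short lengths past the loop are annotated both for those with reads in every library and for those with 1 read. Which ends these cells use was not measured, and the part of the loop or of this length in the read counts was not tested. The longest transcripts of HIST1H2BC (659 bases) and HIST1H2BD (789 bases) hold no loop. Among the 25 genes, the polyadenylation signal AATAAA follows the loop in 5 of the 6 that reached the level needed for testing (an average of 1 normalised read over the libraries) and in 10 of the other 19. Of all 52, a spliced transcript is annotated for 7 of the 13 that reached this level and for 6 of the other 39. For 23 of the 27 genes without a loop the longest annotated transcript is a whole number of codons long. A coding sequence alone would give such a length, but the content was not checked. HIST1H4C, an H4 gene, has 435 bases beside 312 in HIST1H4A, so not all of the 23 need be coding sequence alone. Where the annotation stops at the coding sequence, the end could not be read. No loop was found for 7 of the 13 genes that reached the level for testing. Among them are the 2 members with the most reads, HIST1H2BK (381 bases) and HIST1H1C (642 bases). The loops shown and the AATAAA counts leave these genes out.

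Promoters are shown for the 2 members with the most reads, HIST1H2BK and HIST1H1C, and for HIST1H2AC, an H2A gene that shares its upstream region with HIST1H2BC. Each is the 250 bases before the start of the gene in RefSeq (GRCh38.p14), read on the gene's strand. They lie at chr6:27146859-27147108 on the minus strand for HIST1H2BK, chr6:26056471-26056720 on the minus strand for HIST1H1C and chr6:26123922-26124171 on the plus strand for HIST1H2AC. The capitals mark, on either strand, the TATA box motif TATAAA and the CCAAT box. They also mark the octamer ATTTGCAT, the AAACACA box of H1 genes and ACGTG, the core that hypoxia-inducible factors bind.
HIST1H2BK: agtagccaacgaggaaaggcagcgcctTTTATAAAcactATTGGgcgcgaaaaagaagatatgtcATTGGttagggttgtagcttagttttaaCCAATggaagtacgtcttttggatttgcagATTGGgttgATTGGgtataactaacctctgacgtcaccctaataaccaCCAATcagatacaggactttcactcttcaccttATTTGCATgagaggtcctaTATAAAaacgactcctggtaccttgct
HIST1H1C: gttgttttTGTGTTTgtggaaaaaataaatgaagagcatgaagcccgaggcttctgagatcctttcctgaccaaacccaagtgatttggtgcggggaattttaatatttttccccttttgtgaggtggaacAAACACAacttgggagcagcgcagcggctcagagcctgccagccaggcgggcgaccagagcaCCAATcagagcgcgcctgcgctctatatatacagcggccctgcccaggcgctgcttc
HIST1H2AC: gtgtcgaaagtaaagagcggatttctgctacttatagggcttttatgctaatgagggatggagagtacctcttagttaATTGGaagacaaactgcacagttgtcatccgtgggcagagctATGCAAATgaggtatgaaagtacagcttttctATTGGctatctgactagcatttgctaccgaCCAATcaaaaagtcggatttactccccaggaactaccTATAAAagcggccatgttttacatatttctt
TATAAA can overlap its own reverse complement. The octamer, which is bound by POU2F1 and is typical of H2B genes, was present in 7 of the 12 tested members with a promoter sequence and in 14 of the 34 others, against 1.66% of 27305 promoters. CCAAT was present in 11 of 12 and 27 of 34, against 33.0% of promoters, and TATAAA in 9 of 12 and 24 of 34, against 11.1%. The AAACACA box was in 2 of 12 and 1 of 34, against 4.95% of promoters. ACGTG was in 2 of 12 and 6 of 34, against 18.7% of promoters. A match is a match of letters and not a measured binding site.

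Most histone genes had very few reads. Of the 52, 13 averaged 1 normalised read count or more over the 8 libraries and were tested, 2 of H1, 1 of H2A, 8 of H2B, 1 of H3 and 1 of H4. The 39 under this filter had means of 0 to 0.976 with a median of 0.0922. Of these, 14 had 10 reads or fewer over all 8 libraries, and HIST1H2AL had none. In a normalised read count, reads are scaled by the library alone and length is left in, and one gene's level is not set against another's.

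Histone reads were few in all. They numbered 19717 to 21269 per library labelled shCHD4, or 0.0685% to 0.0774% of reads, and 5233 to 6763 per shSC library, or 0.0205% to 0.0225%. The 2 ranges do not overlap. HIST1H2BK took 57.5% to 58.7% of the histone reads under shCHD4 and 47.9% to 50.3% under shSC. HIST1H1C took 27.1% to 28.0% under shCHD4 and 28.5% to 30% under shSC. With HIST1H2BD and HIST1H2AC these genes made up 95% to 95.1% of histone reads under shCHD4 and 88.5% to 89.5% under shSC, so sums over histone genes are in the main sums over these 4.

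**Figure D1:**
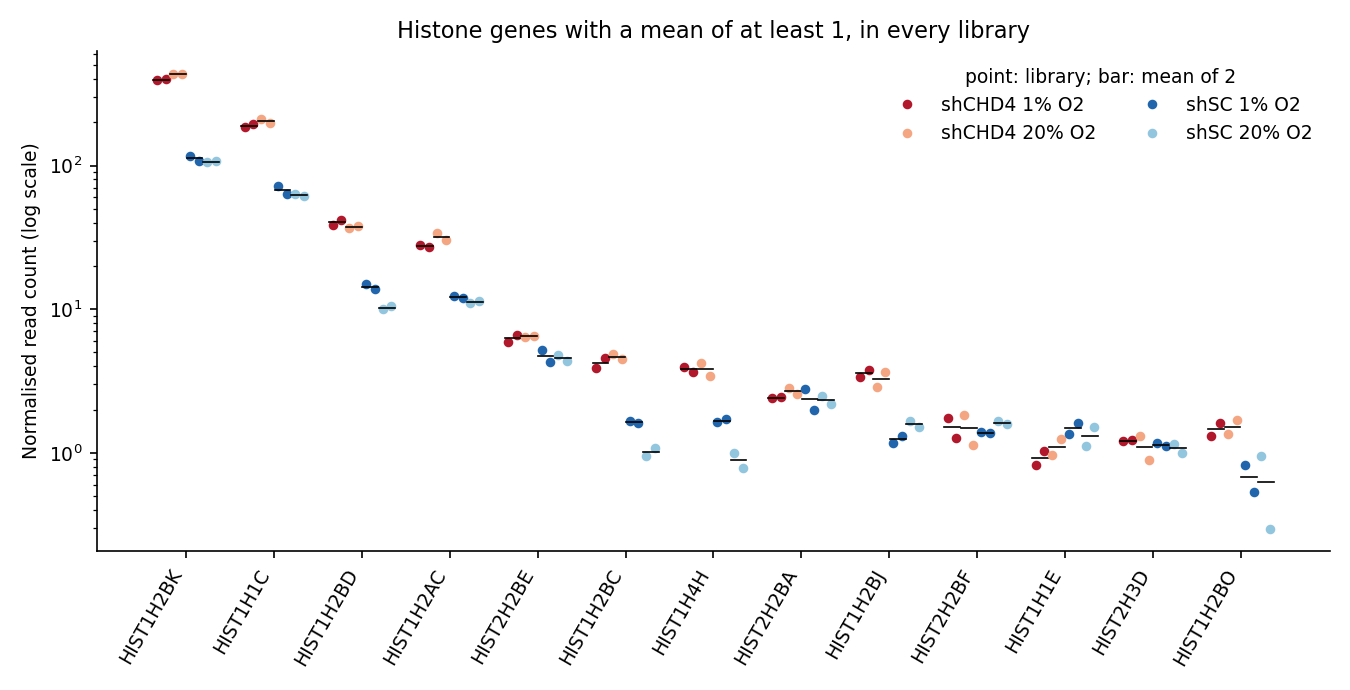
Normalised read count (log scale) of the 13 tested histone genes in every library, ordered by their mean; points are libraries, bars the mean of 2. In HIST1H2BK, HIST1H1C, HIST1H2BD and HIST1H2AC the shCHD4 libraries lie clear of the shSC ones, while in HIST2H2BA, HIST2H2BF and HIST2H3D the 4 shCHD4 and the 4 shSC libraries overlap.

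Between the labels, 9 of the 13 tested histone genes were higher in libraries labelled shCHD4 at 20% O2 and 0 were lower (limma, adjusted p under 0.05), while 37% of all 12645 genes tested were higher and 38.6% were lower. Of the 13, 6 were higher by 2-fold or more, against 4.93% of all genes tested. At 1% O2, 9 were higher and 1 was lower, against 38.2% and 39.2% of all genes, and 6 were higher by 2-fold or more, against 5.67%. The median log2 difference of the 13 was 0.90 at 20% O2 and 0.98 at 1% O2, and that of all genes tested was -0.0091 and -0.0067. All 4 shCHD4 libraries lay above all 4 shSC libraries for 9 of the 13, against 32.8% of genes tested, and below them for 0 of the 13, against 34.4%. The 13 are the members with enough reads, not all members, and HIST1H2BO passed the filter only through the shCHD4 libraries. In bulk RNA, more cells in S phase and more polyadenylated histone RNA per cell cannot be told apart. The libraries report mainly on polyadenylated forms, so the differences need not be those of all histone RNA.

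The H2B genes, whose products pair with H2A in the nucleosome, included HIST1H2BK, the tested member with the largest fitted log2 difference at each O2 level. As a plain ratio of means at 20% O2, HIST1H2BC (4.61) and HIST1H4H (4.33), which have few reads, lay above HIST1H2BK (4.07). HIST1H2BK had 391 and 403 normalised read counts in shCHD4 cells at 1% O2, against 116 and 108 in shSC cells. Its 20% O2 libraries gave 437 and 431 in shCHD4 cells, against 107 and 107 in shSC cells. The groups are far apart at both O2 levels, with a log2 difference of 1.82 (SE 0.044) at 1% O2 and 2.02 (SE 0.044, adjusted p = 1.1e-17) at 20% O2. Of the 50-base stretches of its annotated transcript, 74.1% also occur in another gene's, 61.5% in H2BFS, so its count is uncertain as the count of 1 gene.

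HIST1H2BD, an H2B gene whose annotated transcripts include a spliced form, had 38.7 and 41.9 in shCHD4 cells at 1% O2, against 14.9 and 13.8 in shSC cells. The values at 20% O2 were 37.0 and 37.7 in shCHD4 cells, against 10.0 and 10.5 in shSC cells. Only 5.36% of its 50-base stretches recur elsewhere. The log2 difference was 1.46 (SE 0.073) at 1% O2 and 1.81 (SE 0.073, adjusted p = 8.74e-14) at 20% O2, with no overlap between labels. HIST1H2BC, which shares its upstream region with HIST1H2AC, had 3.92 and 4.56 in shCHD4 cells at 1% O2, against 1.68 and 1.61 in shSC cells, and 4.86 and 4.48 under shCHD4 against 0.952 and 1.08 under shSC at 20% O2. Its log2 difference was 1.14 (SE 0.14, adjusted p = 5.11e-07) at 1% O2 and 1.77 (SE 0.14, adjusted p = 1.26e-09) at 20% O2.

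HIST1H2BJ, an H2B gene that faces HIST1H2AG, had 3.40 and 3.75 in shCHD4 cells at 1% O2, against 1.18 and 1.31 in shSC cells, and 2.88 and 3.66 under shCHD4 against 1.66 and 1.52 under shSC at 20% O2. The labels do not overlap, and the log2 difference was 1.22 (SE 0.15) at 1% O2 and 0.84 (SE 0.15) at 20% O2. HIST2H2BE, an H2B gene of the HIST2 cluster, had 5.91 and 6.61 under shCHD4 against 5.18 and 4.27 under shSC at 1% O2, and 6.44 and 6.52 under shCHD4 against 4.80 and 4.35 under shSC at 20% O2. The gap is small beside that of the HIST1 genes above, with log2 differences of 0.37 (adjusted p = 0.00728) and 0.46 (adjusted p = 0.00162). HIST1H2BO, an H2B gene with 239 reads in all, had 1.31 and 1.63 in shCHD4 cells at 1% O2, against 0.822 and 0.538 in shSC cells, and 1.35 and 1.69 under shCHD4 against 0.952 and 0.297 under shSC at 20% O2. Its log2 difference was 0.74 (SE 0.23) at 1% O2 and 0.90 (SE 0.23) at 20% O2. At 1% O2 neither HIST1H2BO nor HIST2H2BE passed without replicate 2 of shCHD4 at 1% O2 (adjusted p = 0.0655 and 0.0796) or without replicate 2 of shSC at 1% O2 (adjusted p = 0.0865 and 0.103). At 20% O2 HIST1H2BO did not pass without replicate 2 of shSC at 20% O2 (adjusted p = 0.0702).

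The other H2B genes of the HIST2 cluster did not pass. HIST2H2BA had 2.40 and 2.44 in shCHD4 cells at 1% O2, against 2.79 and 1.98 in shSC cells, and 2.84 and 2.59 under shCHD4 against 2.48 and 2.19 under shSC at 20% O2. Its log2 difference was 0.032 (95% interval -0.29 to 0.35) at 1% O2 and 0.18 (-0.14 to 0.50) at 20% O2, where both shCHD4 libraries lay above both shSC libraries. HIST2H2BF had 1.75 and 1.27 in shCHD4 cells at 1% O2, against 1.39 and 1.38 in shSC cells, and 1.83 and 1.14 under shCHD4 against 1.66 and 1.597 under shSC at 20% O2. The libraries of both labels overlap, and the log2 difference was 0.083 (-0.30 to 0.47) at 1% O2 and -0.12 (-0.50 to 0.26) at 20% O2. HIST2H2BA shares 73.6% of its 50-base stretches with other genes, 54.6% with HIST2H2BF, so neither count is certain.

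The linker histone genes went different ways at 1% O2. HIST1H1C, which encodes the linker histone H1.2, had 185 and 194 in shCHD4 cells at 1% O2, against 72.5 and 63.2 in shSC cells. Its values at 20% O2 were 212 and 199 in shCHD4 cells, against 63.9 and 61.2 in shSC cells. None of its 50-base stretches recurs in another gene, and its log2 difference was 1.48 (SE 0.059) at 1% O2 and 1.71 (SE 0.059, adjusted p = 8.75e-15) at 20% O2. HIST1H1E, which encodes H1.4, had 0.824 and 1.03 in shCHD4 cells at 1% O2, against 1.36 and 1.61 in shSC cells, and 0.973 and 1.24 under shCHD4 against 1.12 and 1.52 under shSC at 20% O2. It was lower at 1% O2, with a log2 difference of -0.48 (SE 0.18, adjusted p = 0.0211), and the labels overlapped at 20% O2 (-0.18, adjusted p = 0.384). The lower call was lost with every library at the same total (adjusted p = 0.0505), with DESeq2 (0.116), and without replicate 1 of shCHD4 (0.139) or replicate 2 of shSC (0.126) at 1% O2.

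HIST1H2AC, the H2A gene opposite HIST1H2BC, had 27.9 and 27.3 in shCHD4 cells at 1% O2, against 12.4 and 11.9 in shSC cells. At 20% O2 it had 33.8 and 30.3 in shCHD4 cells, against 10.965 and 11.4 in shSC cells. Replicates lay close together beside the gap between labels, and the log2 difference was 1.15 (SE 0.076) at 1% O2 and 1.47 (SE 0.076, adjusted p = 3.35e-12) at 20% O2. HIST1H4H, an H4 gene with a spliced annotated form, had 3.98 and 3.64 in shCHD4 cells at 1% O2, against 1.64 and 1.71 in shSC cells. Kept at 20% O2, the cells gave 4.23 and 3.45 under shCHD4, against 0.993 and 0.780 under shSC. Its log2 difference was 0.98 (SE 0.15, adjusted p = 7.84e-06) at 1% O2 and 1.64 (SE 0.15, adjusted p = 9.76e-09) at 20% O2. HIST2H3D, an H3 gene, had 1.20 and 1.24 under shCHD4 against 1.18 and 1.11 under shSC at 1% O2 and 1.31 and 0.897 under shCHD4 against 1.16 and 1.00 under shSC at 20% O2. Its log2 difference was 0.065 (95% interval -0.30 to 0.43) at 1% O2 and 0.010 (-0.36 to 0.38) at 20% O2, so its labels lay close at 1% O2 and overlapped at 20% O2. Of its 50-base stretches, 80.4% recur elsewhere, and its count is uncertain.

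**Figure D2:**
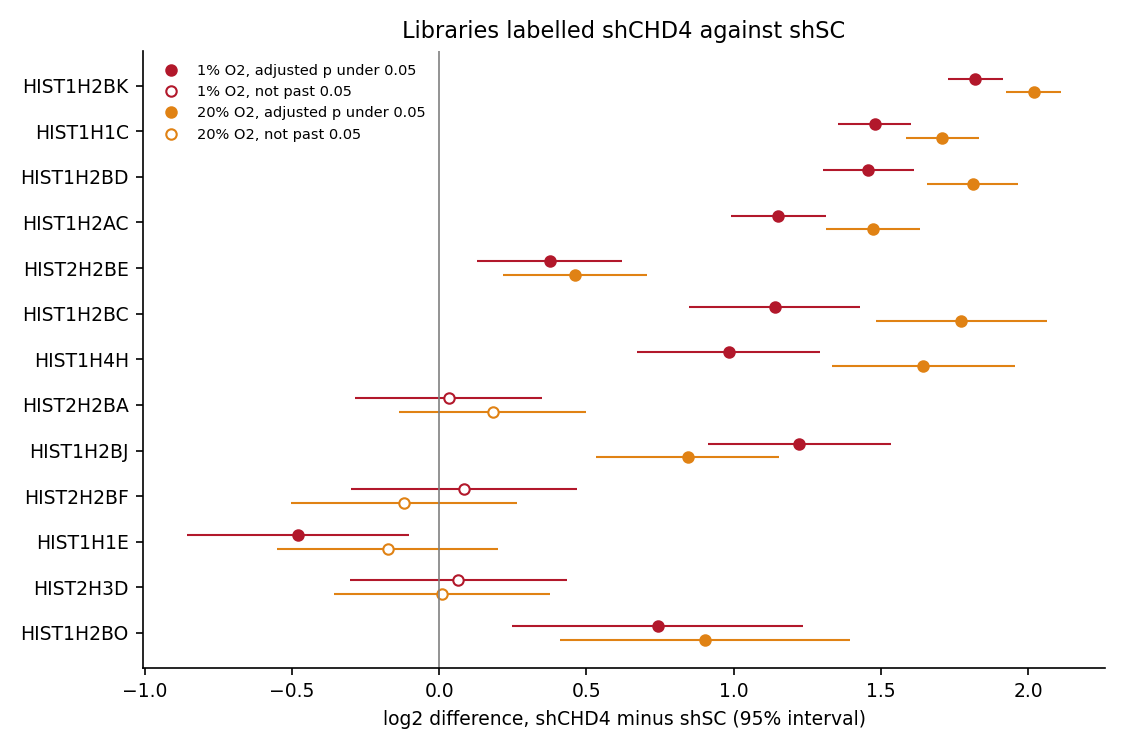
log2 difference (shCHD4 minus shSC) of each tested histone gene at 1% and 20% O2, with its 95% interval from limma; filled points passed the adjusted p of 0.05. HIST1H2BK lies furthest to the right at both O2 levels (1.82 and 2.02), and HIST1H1E at 1% O2 is the filled point left of 0.

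Summed over all members of a class, H2B reached 458.8 ± 10.8 normalised read counts in shCHD4 cells at 1% O2, against 140.0 ± 7.72 in shSC cells (SD, n = 2 each here and below). At 20% O2 it reached 493.5 ± 4.42 in shCHD4 cells and 130.3 ± 0.849 in shSC cells, a ratio of 3.79. H1 reached 190.8 ± 6.11 under shCHD4 against 69.4 ± 6.47 under shSC at 1% O2, and 206.7 ± 9.27 under shCHD4 against 63.9 ± 1.62 under shSC at 20% O2. H2A reached 30.3 ± 0.438 under shCHD4 against 15.2 ± 0.321 under shSC at 1% O2, and 35.7 ± 2.92 under shCHD4 against 13.9 ± 0.454 under shSC at 20% O2. These classes differ between labels by many times the spread of their libraries. H3 was nearer, at 3.59 ± 0.0248 under shCHD4 against 3.19 ± 0.0905 under shSC at 1% O2 and 4.26 ± 0.271 under shCHD4 against 2.73 ± 0.234 under shSC at 20% O2. H4 stood at 5.31 ± 0.0633 under shCHD4 against 3.96 ± 0.39 under shSC at 1% O2 and 5.59 ± 0.246 under shCHD4 against 3.50 ± 0.378 under shSC at 20% O2. HIST1H4H alone averaged 3.81 under shCHD4 against 1.68 under shSC at 1% O2, and 3.84 against 0.886 at 20% O2. That gap exceeds the gap of the H4 sum, so the other H4 genes together were lower under shCHD4 at each O2 level. The sums were not tested, and 8 of the 13 tested members are H2B genes.

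**Figure D3:**
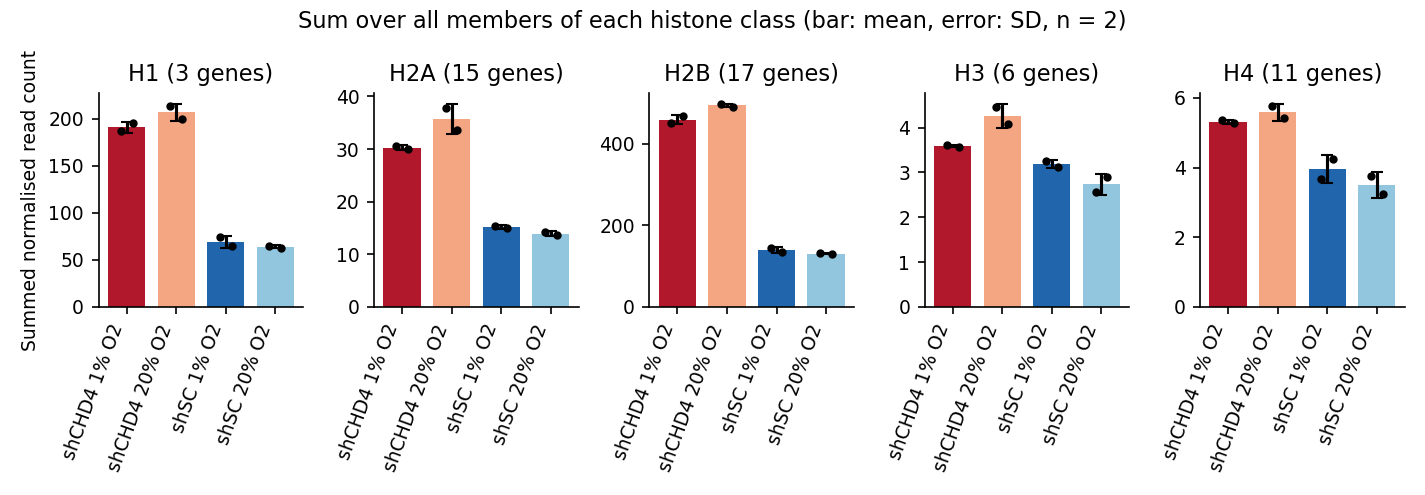
Summed normalised read count of all members of each histone class in the 4 groups; bars are means, error bars the SD of 2 libraries, points the libraries. Both shCHD4 groups stand above both shSC groups in each class, and the H3 and H4 sums stay under 6. In H4 this is due to HIST1H4H, and the other H4 genes together were lower under shCHD4.

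Members under the filter did not all go the same way. All 4 shCHD4 libraries lay above all 4 shSC libraries for 6 of these 39 and below them for 3, against 8.6% and 8.25% of all genes under the filter with any read. HIST2H2BC had the highest mean of the 39, with 1.24 and 0.955 in shCHD4 cells at 1% O2, against 0.965 and 1.01 in shSC cells, and 1.23 and 0.897 under shCHD4 against 0.952 and 0.557 under shSC at 20% O2. HIST1H3C, an H3 gene, had 1.17 and 0.919 under shCHD4 against 0.643 and 0.504 under shSC at 1% O2, and 1.23 and 1.55 under shCHD4 against 0.372 and 0.706 under shSC at 20% O2. HIST1H2AM, an H2A gene that shares 86.3% of its 50-base stretches with HIST1H3J, had 0.996 and 0.884 under shCHD4 against 0.786 and 0.470 under shSC at 1% O2, and 1.23 and 0.966 under shCHD4 against 0.786 and 0.520 under shSC at 20% O2. Of these, HIST1H3C and HIST1H2AM did not overlap between labels, and HIST2H2BC did.

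With the filter lowered to a mean of 0.2, 25 members could be tested. Of the 12 added, 6 were higher and 1 was lower at 20% O2, against 35.1% and 36.3% of the 14347 genes then tested, and 2 were higher and 2 lower at 1% O2, against 36.4% and 37%. HIST1H3C was higher at both O2 levels, by 0.88 at 20% O2 and 0.52 at 1% O2 on the log2 scale. The H4 gene HIST1H4A, named after its values were seen, was lower at both, with 0.515 and 0.318 in shCHD4 cells at 1% O2, against 0.894 and 1.21 in shSC cells, and 0.337 and 0.552 under shCHD4 against 1.45 and 1.15 under shSC at 20% O2. The log2 differences of HIST1H4A were -0.76 (1% O2, adjusted p = 0.00112) and -0.93 (20% O2, adjusted p = 0.000161). H4 genes thus lay on both sides, HIST1H4H higher and HIST1H4A lower.

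Histone genes of H2A and H2B often face each other across a short shared upstream region. Among the 46 members with a promoter sequence, 9 such pairs with starts within 500 bases were found. HIST1H2BC and HIST1H2AC, 244 bases apart, were both higher under shCHD4 at both O2 levels. HIST1H2BJ was higher at both, while its partner HIST1H2AG, 246 bases away and tested only under the lower filter, had log2 differences of -0.12 (adjusted p = 0.56) at 1% O2 and 0.47 (adjusted p = 0.0309) at 20% O2. HIST2H2BE was higher at both, while its partner HIST2H2AC, 234 bases away, had -0.24 (adjusted p = 0.248) at 1% O2 and -0.38 (adjusted p = 0.0788) at 20% O2. HIST1H2BO was higher at both, and its partner HIST1H2AM, 238 bases away, was higher at 20% O2 (0.48, adjusted p = 0.0261) and did not pass at 1% O2 (0.36, adjusted p = 0.0813). These are the 4 pairs found with a tested member, named for their place and not by level. No pair could be looked for where a promoter sequence was missing, as for HIST1H2AH. It is not known if reads were assigned by strand, so reads of genes that overlap cannot be told apart.

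The comparisons between O2 levels use the same libraries as those between labels. At 1% against 20% O2, 3 of the 13 were higher and 0 were lower in shSC cells, against 17.4% and 17.9% of all genes tested. HIST1H4H was higher by 0.66 on the log2 scale (SE 0.15, adjusted p = 0.0022), HIST1H2BC by 0.50 (SE 0.14, adjusted p = 0.00844) and HIST1H2BD by 0.46 (SE 0.073, adjusted p = 9.08e-05). In each of them both 1% O2 libraries lay above both 20% O2 libraries, as the values above show. HIST1H2BK (0.068, 95% interval -0.025 to 0.16), HIST1H1C (0.11, -0.010 to 0.24), HIST1H2AC (0.11, -0.050 to 0.27) and HIST1H2BJ (-0.26, -0.57 to 0.050) did not pass. The median of the 13 was 0.11, and that of all genes tested was -0.011. HIST1H2BC did not pass with DESeq2 (adjusted p = 0.09) or without replicate 1 of shSC at 20% O2 (adjusted p = 0.0514), and HIST1H1C passed without replicate 2 of shSC at 1% O2 (0.21, adjusted p = 0.0147).

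Under shCHD4, 0 of the 13 were higher at 1% O2 and 1 was lower, against 12.3% and 10.7% of all genes tested. The lower gene was HIST1H2BK, with 391 and 403 at 1% O2 against 437 and 431 at 20% O2, a log2 difference of -0.13 (SE 0.044, adjusted p = 0.0441). HIST1H2AC (-0.21, adjusted p = 0.0537), HIST1H1C (-0.11, adjusted p = 0.17), HIST1H2BC (-0.13, adjusted p = 0.531) and HIST1H2BD (0.11, adjusted p = 0.3) did not pass. The HIST1H2BK call did not hold throughout. Its adjusted p ran from 0.0149 to 0.272 over the alternatives, and it was lost when any of the 4 shCHD4 libraries was left out (adjusted p = 0.111 to 0.272) and under a replicate block (0.0567). HIST1H2AC was lower past the threshold in 6 of 19 alternatives, among them edgeR's quasi-likelihood test (adjusted p = 0.0308).

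The test of whether the O2 difference depended on the label called 0 of the 13 in limma, against 4.36% of all genes tested, and 0 in edgeR and in DESeq2. At an unadjusted p under 0.05 there were 6, against 18.2% of all genes tested, with the log2 interaction (the O2 difference under shCHD4 minus that under shSC) at -0.66 for HIST1H4H, -0.63 for HIST1H2BC, -0.35 for HIST1H2BD, -0.32 for HIST1H2AC, -0.23 for HIST1H1C and -0.20 for HIST1H2BK. All 6 are below 0, with adjusted p of 0.0601 to 0.138. Without replicate 2 of shSC at 1% O2 3 of them passed, and without replicate 1 of shSC at 20% O2 HIST1H4H passed.

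**Figure D4:**
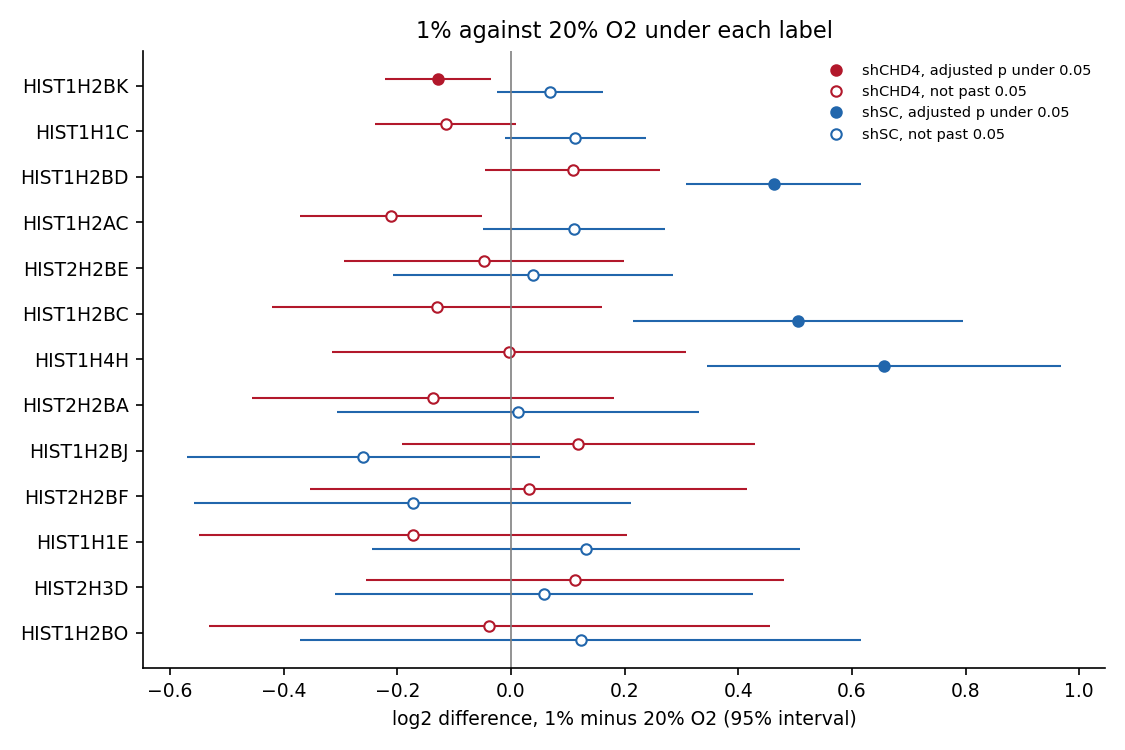
log2 difference (1% minus 20% O2) of each tested histone gene under shCHD4 and under shSC, with its 95% interval from limma; filled points passed the adjusted p of 0.05. The shSC points of HIST1H2BD, HIST1H2BC and HIST1H4H are filled on the right, and the shCHD4 point of HIST1H2BK is filled on the left.

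Genes that act on histone mRNA were read beside the members. SLBP, the protein that binds the stem-loop, had 100.1 and 99.6 normalised read counts in shCHD4 cells at 1% O2, against 48.2 and 53.6 in shSC cells, and 108.2 and 105.5 under shCHD4 against 58.5 and 61.0 under shSC at 20% O2. It was higher under shCHD4 by a log2 difference of 0.97 (SE 0.055) at 1% O2 and 0.83 (SE 0.055, adjusted p = 1.15e-10) at 20% O2. NPAT, the activator of the clusters, had 61.2 and 57.6 under shCHD4 against 52.8 and 58.1 under shSC at 1% O2 and 58.0 and 57.4 under shCHD4 against 62.3 and 66.5 under shSC at 20% O2. It was lower at 20% O2 (-0.16, adjusted p = 0.0231) and did not pass at 1% O2 (0.099, adjusted p = 0.134). Neither held throughout: at 20% O2 NPAT did not pass in 7 of 19 alternatives (adjusted p up to 0.259), including without either shCHD4 library or replicate 2 of shSC at 20% O2. At 1% O2 it was higher with quantile normalization (0.18, adjusted p = 0.0105), at the same total (0.21, adjusted p = 0.00359) and without replicate 2 of shSC at 1% O2 (adjusted p = 0.0339). CASP8AP2, a partner of NPAT in histone locus bodies also known as FLASH, was likewise lower at 20% O2 (-0.23, adjusted p = 0.00152) and did not pass at 1% O2 (-0.049, adjusted p = 0.463).

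Of the 25 genes listed for histone pre-mRNA transcription, processing and decay, 11 were higher and 8 lower under shCHD4 at 20% O2, with a median log2 difference of 0.12, and 11 were higher and 6 lower at 1% O2, with a median of 0.099. Shares of all genes for each comparison are those given above. SNRPG, a core protein of snRNPs, was higher by 0.48 at 20% O2 and 0.65 at 1% O2. CSTF2, a cleavage factor of the polyadenylation machinery, was lower, at -0.58 at both O2 levels, and so was ZCCHC6, a uridyl transferase that acts in histone mRNA decay, at -0.49 and -0.57. Of the 21 histone chaperone and chromatin assembly genes, 9 were higher and 5 lower at 20% O2, and 10 higher and 3 lower at 1% O2. HAT1, which acetylates new H4, was higher by 0.96 and 1.01, and RBBP4, a histone binding subunit of several complexes including NuRD, by 0.74 and 0.94, at 20% and 1% O2.

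Histone genes outside the clusters, most of which are expressed through the cell cycle and make polyadenylated mRNA, were split. Of 12 listed, 10 were tested, and 5 were higher and 4 lower at both O2 levels. H1F0, the linker histone H1.0 of slowly dividing and differentiated cells, had 201 and 209 in shCHD4 cells at 1% O2, against 2049 and 1870 in shSC cells. At 20% O2 it had 145 and 139.9 in shCHD4 cells, against 1346 and 1315 in shSC cells. It was thus lower under shCHD4, with log2 differences of -3.25 (SE 0.046) at 1% O2 and -3.22 (SE 0.046) at 20% O2, opposite to HIST1H1C. H1FX, another linker histone, was also lower (-1.03 and -0.99), while H2AFV, an H2A.Z variant, was higher (0.78 and 0.76), at 1% and 20% O2. H2AFX, the variant phosphorylated at DNA breaks, was higher by 0.74 at 20% O2, and H3F3B, an H3.3 gene, was lower at 1% O2 (-0.69).

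S phase genes, which are expressed when the clustered histone genes are, were mostly higher under shCHD4. Of 39, 31 were higher and 5 lower at 20% O2, with a median log2 difference of 0.46, and 31 were higher and 4 lower at 1% O2, with a median of 0.56. CCNE2, an E-type cyclin, had 72.4 and 67.8 in shCHD4 cells at 1% O2, against 15.2 and 18.99 in shSC cells, and 79.0 and 80.6 under shCHD4 against 24.1 and 24.2 under shSC at 20% O2 (log2 difference 2.01 and 1.70). CCNE1, the other E-type cyclin, was higher by 2.26 at 20% O2. MCM3 and MCM5, subunits of the replicative helicase, were higher by 1.27 and 1.02 at 20% O2 and by 1.63 and 1.51 at 1% O2, and PCNA, the sliding clamp, by 1.01 at 1% O2. The part of these genes in the histone differences was not tested.

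At 1% O2 the S phase genes and the histone genes did not show the same counts. Under shSC, 0 of the 39 S phase genes were higher and 32 were lower at 1% O2, with a median log2 difference of -0.32, beside 3 higher and 0 lower of the 13 histone genes. Under shCHD4, 0 were higher and 29 lower, with a median of -0.26, beside 0 higher and 1 lower histone gene. MCM5 (-0.78), MCM3 (-0.65), MCM10 (-0.63) and MCM2 (-0.60) were lower under shSC, and MCM10 (-0.42), CDC6 (-0.32), RRM1 (-0.31) and TYMS (-0.31), genes of origin licensing and nucleotide supply, under shCHD4. SLBP was lower at 1% O2 under shSC (-0.23, adjusted p = 0.00329) and did not pass under shCHD4 (-0.098, adjusted p = 0.21). NPAT (-0.22) and CASP8AP2 (-0.16) were also lower under shSC. Without replicate 1 of shSC at 1% O2 none of the 3 passed (adjusted p = 0.069, 0.128 and 0.313), nor did NPAT (0.0638) or CASP8AP2 (0.217) without replicate 2 of shSC at 20% O2. CASP8AP2 did not pass in 10 of 19 alternatives, including without any one of the shCHD4 libraries. The processing list held 0 higher and 10 lower genes under shSC and 0 higher and 7 lower under shCHD4, SNRPF among them (-0.33 and -0.23). The shSC count fell without replicate 1 of shSC at 1% O2. The shCHD4 count fell without replicate 1 of shCHD4 at 1% O2 or at 20% O2, where SNRPF did not pass. It also fell without replicate 2 of shCHD4 at 1% O2. Such fits leave 1 library in a group, and in each of them fewer of all genes passed too. The chaperone list held 2 higher and 11 lower under shSC and 1 higher and 11 lower under shCHD4, with IPO4, a nuclear importer of H3 and H4, at -0.38 and -0.41 and CHAF1A, a subunit of the assembly factor CAF-1, at -0.37 and -0.31, under shSC and shCHD4. Fewer chaperone genes were called under shCHD4 without replicate 1 of shCHD4 at 1% O2 or at 20% O2, again with fewer of all genes called.

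Of 20 genes of G2 and mitosis, 13 were higher and 2 lower under shCHD4 at 20% O2, and 10 higher and 3 lower at 1% O2, with medians of 0.18 and 0.12. KIF20A, a mitotic kinesin, was higher by 1.32 and 1.61, and TOP2A, which untangles replicated DNA, by 0.83 and 0.82, at 20% and 1% O2. Of 15 inhibitors of cyclin-dependent kinases and arrest genes, 13 were tested, and 7 were higher and 2 lower at both O2 levels. CDKN2C, which encodes p18, was higher by 2.31 and 2.48, and RB1, the retinoblastoma protein, by 1.06 and 1.03, at 20% and 1% O2. CDKN1A, which encodes p21, had 84.6 and 86.3 in shCHD4 cells at 1% O2, against 249 and 259 in shSC cells, a log2 difference of -1.56. Under shSC CDKN1A was higher at 1% than at 20% O2 by 1.11, and under shCHD4 by 0.18. The shCHD4 call was lost without any one of the 4 shCHD4 libraries (adjusted p = 0.0513 to 0.101) and without the variance trend (0.0637).

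**Figure D5:**
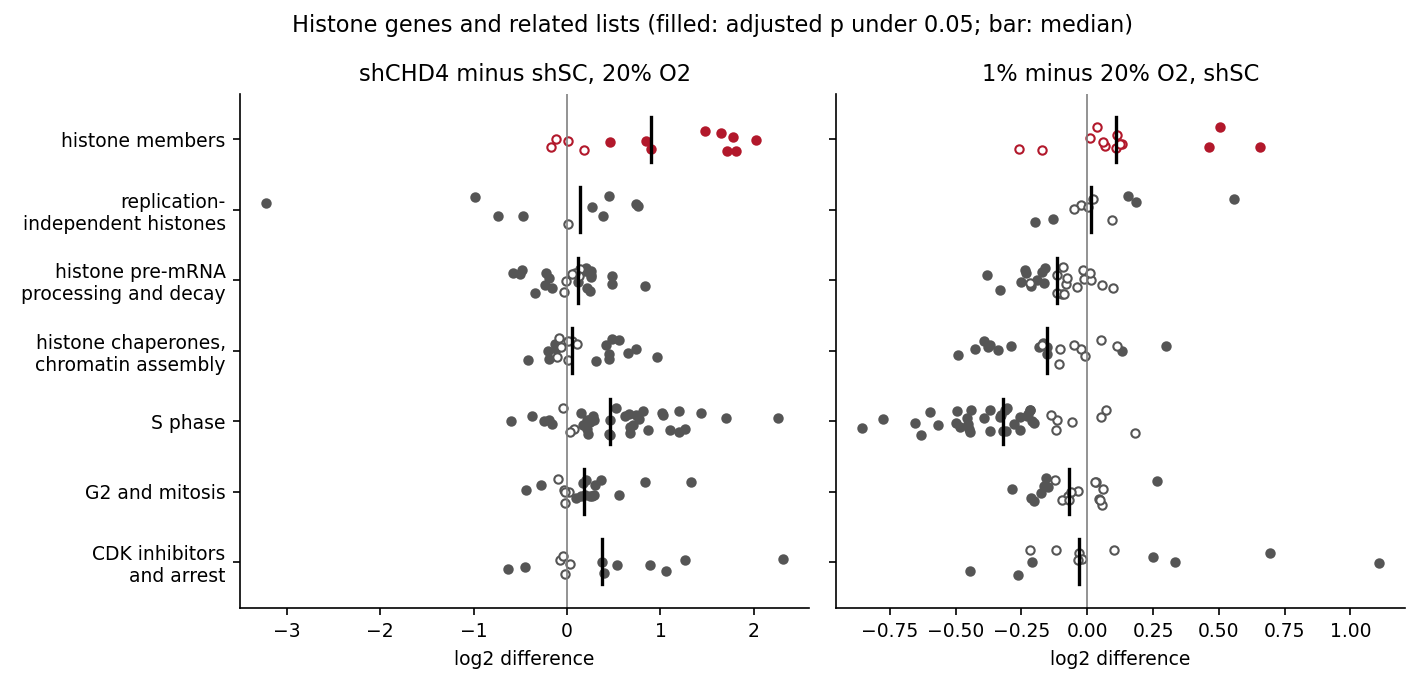
log2 difference of the 13 tested histone genes and of 6 related lists, shCHD4 minus shSC at 20% O2 (left) and 1% minus 20% O2 under shSC (right); filled points passed the adjusted p of 0.05 and bars are medians. The histone genes and the S phase genes lie mostly right of 0 on the left (medians 0.90 and 0.46), and on the right the S phase genes lie left of 0 (median -0.32) and the histone genes do not (median 0.11).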

How the data were processed

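The authors' table gives 1 value per gene for 8 libraries of polyadenylated RNA. Per the submitters' processing notes, reads were handled with bcl2fastq 2.17, FastQC 0.11.2, TopHat, Picard 1.127, featureCounts and edgeR on hg19. No annotation or strand setting is given in the sources. The deposited values, named FPKM, are a signal proportional to reads: in each library 100% of values are whole multiples of 1 step within 0.01 reads, so the authors divided gene counts by 1 factor per library and not by length. They are called normalised read counts, and whole reads were recovered from the step.

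Genes with a mean of at least 1 (12645) entered 1 fit of all 4 groups in limma (3.58.1, under R 4.3.3) on log2(value + 0.5), with a trended variance and degrees of freedom of 4 (residual) and 13.9 (prior), two-sided, with Benjamini-Hochberg adjustment over all genes tested at 0.05. Because of the pseudocount, this log2 difference is too small for low genes. Any adjusted p without a named tool is from this fit. With 2 libraries a side, the smallest p an exact permutation test allows is 0.33, so none was run. The test planned for FPKM was kept, and edgeR 4.0.16 and DESeq2 1.42.0 on recovered reads were alternatives, as were other pseudocounts, filters, scalings, a replicate block and leaving out each library. edgeR's quasi-likelihood test on the recovered reads called 9570 genes between labels at 20% O2, 9861 at 1% O2, 4490 and 2959 between O2 levels under shSC and under shCHD4, and 563 for the interaction. The fits were also run on simulated counts with the same dispersion for every gene and few changed genes. Here most genes were called between labels, so that run does not show how errors are controlled in these data.

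The members and the 6 gene lists were chosen with earlier results of these data known. By the rule for names, any tested member, the 3 members under the filter with the highest mean, up to 4 genes of each list with the smallest p in a comparison, and SLBP, NPAT, CASP8AP2 and CHD4 were named. Shared sequence is the percent of 50-base stretches of a gene's GENCODE 29 transcripts found in another gene's. GENCODE 29 and RefSeq are on GRCh38 and not on the table's build, and were used for sequence, names and neighbours. HIST2H4A and HIST2H4B, and HIST2H2AA3 and HIST2H2AA4, had identical values in every library. Replicates of a group differed by more than counting error, with a chi-square per degree of freedom of 2.12 to 4.46. No interval covers more than the spread between these libraries.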

Additional observations from a re-analysis of the deposited data

Results flagged for a closer look

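The interaction of label and O2 passed an adjusted p of 0.05 in limma for 12 of the 128 tested list genes and 4.36% of all genes. It passed for 0 of the 13 tested histone genes, where 6 had an unadjusted p under 0.05, against 18.2% of all genes, and edgeR and DESeq2 called 0. The 10 genes named here were picked by the smallest p in their list, so that they passed is no finding. Values are the log2 O2 difference (1% minus 20%) under shCHD4, then under shSC. CDKN1A, the p21 gene, had 0.18 and 1.11, an interaction of -0.93 (adjusted p = 2.72e-07). MCM5 had -0.29 and -0.78 (interaction 0.49), MCM3 -0.29 and -0.65 (0.36) and UHRF1, which keeps DNA methylation through replication, -0.16 and -0.57 (0.41). CCNE1 had -0.39 and 0.18 (interaction -0.57). The histone variant genes H2AFX, with -0.34 and 0.022 (interaction -0.36), and H3F3B, with -0.031 and 0.18 (-0.22), differed too. ZNF473, a zinc finger protein of histone pre-mRNA processing, had -0.31 and 0.011 (interaction -0.32, adjusted p = 0.0497). UBE2C, a ubiquitin-conjugating enzyme of mitosis, had -0.11 and 0.27 (interaction -0.37), and CENPF, a kinetochore protein, 0.069 and -0.16 (interaction 0.22). CDKN1A passed in all 18 alternatives run, and MCM5 and UBE2C in 17, both lost without the variance trend (adjusted p = 0.0625 and 0.0754). The other calls were lost in many alternatives, leaving out single libraries among them: H2AFX and MCM3 in 7 of 18, UHRF1 and CCNE1 in 8, CENPF in 9, H3F3B in 12 and ZNF473 in 14, with the adjusted p reaching 0.178, 0.213, 0.212, 0.148, 0.249, 0.238 and 0.204. CENPF, H3F3B and ZNF473 also did not pass under a replicate block (adjusted p = 0.0623, 0.0643 and 0.0599).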

How the results depend on the processing

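The median log2 difference of the tested histone genes (shCHD4 against shSC) was 1.32 at 20% O2 and 1.14 at 1% O2 with a pseudocount of 0.1, 0.72 and 0.84 with 1, 0.47 and 0.096 with the filter at 0.2, 0.052 and 0.032 with no filter, 1.33 and 1.19 in edgeR, and 1.31 and 1.19 in DESeq2. Lower filters admit members with few reads. Leaving out a library gave 0.78 to 1.33 at 20% O2. With no filter 22 of 51 members were called at 20% O2 (19 higher, 3 lower), against 54.2% of all genes then tested, and 17 at 1% O2 (13 higher, 4 lower), against 55.9%. With the filter at 0.2, 16 of 25 were called at 20% O2 (15 higher, 1 lower), against 71.4%. With every library at the same total, which moved the median of all genes to 0.10 at 1% O2, the median of the members was 1.08 at 1% O2, and the log2 class sums (20% and 1% O2) were 1.88 and 1.69 for all, 2.003 and 1.83 for H2B, 1.77 for H1 at 20% O2, 1.11 for H2A and 0.29 for H3 at 1% O2. The cause of these shifts was not tested.

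For 1% against 20% O2 under shSC the median was 0.017 with no filter and 0.019 to 0.17 without 1 library. Under shCHD4 the median ran from -0.15 to -0.048 without 1 library. The members called under shCHD4 (1 in the main setting) were 0 with no filter, without the variance trend and in DESeq2, 2 at the same total, with the compared groups alone and in edgeR, and 0 to 2 without 1 library. For the interaction the median was -0.052 with no filter and -0.33 to -0.13 without 1 library, where 0 to 3 members were called.

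Whether replicate numbers pair the samples is not known. Deviations of same-numbered libraries correlated at -0.12 to 0.12, which cannot decide it. The replicate block called 0 members under shCHD4 and changed no other call of a histone member named above. Crossed pairing of the shCHD4 libraries, tried after the data were seen, called 3 there (39.8% of all genes), against 1 (20.1%) with the numbers as labelled.

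Values near 0 that did not pass changed sign without 1 library: HIST2H2BF ran from -0.38 to 0.13 at 20% O2 and -0.089 to 0.26 at 1% O2, HIST2H3D from -0.18 to 0.20 and CHD4 from -0.025 to 0.029 at 20% O2, and HIST2H2BA from -0.17 to 0.23 and CASP8AP2 from -0.11 to 0.013 at 1% O2. CASP8AP2 at 1% O2 was 0.012 with quantile normalization and 0.065 at the same total.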
